A study of Mus musculus with 24 samples.

Results

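The genes described here encode the machinery with which a nerve terminal releases neurotransmitter. The set holds 38 genes, each represented by the brightest of its probes on the array, out of 19751 genes that the array identifiers could be matched to. All 38 were found on the array, through 56 probes, and 12 of them had more than 1 probe. In a nerve terminal, synaptic vesicles carry transmitter loaded by vesicular transporters, are held in reserve by synapsins, and are docked at the active zone by scaffold and priming proteins. Syntaxin, SNAP25 and synaptobrevin (the SNARE proteins) then pull the vesicle and plasma membranes together, with complexins and tomosyn regulating the assembly, and synaptotagmins sense the calcium that triggers fusion. In the hippocampus this machinery serves the excitatory synapses of principal neurons as well as the inhibitory terminals of interneurons.

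Hippocampal RNA was compared between offspring of male mice that received a control diet (CD) or a methyl donor-rich diet (MD) for 6 weeks before mating. The MD supplement per kg of chow came to 15 g each of choline and betaine, 7.5 g of methionine, 150 mg of zinc, 15 mg of folic acid and, of vitamin B12, 1.5 mg. CD F1 and MD F1 were the offspring of CD or MD fathers of the strain C57BL/6J and 129S6/SvEv mothers, and CD F2 and MD F2 descended from CD or MD grandfathers through F1 males mated with CD F1 females, on a mixed background of both strains. All offspring ate the control diet. Their age is 4 weeks in the sample labels, while the study describes adult animals. Each of the 4 groups had 6 arrays, and each array held RNA pooled from 4 mice, so the spread between arrays understates the spread between animals. The arrays lay on 6 slides, 3 per generation, and every slide held 2 CD and 2 MD arrays. The generations shared no slide and no scan day and were scaled separately, so levels are given within a generation and not set against each other across generations.

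The median processed intensity was 251 to 318 in CD F1, 167 to 262 in MD F1, 151 to 262 in CD F2 and, in MD F2, 148 to 262. MD F1 replicate 6, CD F2 replicate 6 and MD F2 replicate 3 stood apart from the other arrays, with a mean correlation to them of 0.985, 0.977 and 0.974. Of the cell type markers, 14 of 15 of hippocampal principal neurons and 7 of 8 of GABA interneurons were well above background on all 24 arrays. So were 8 of 10 thalamus, 9 of 10 striatum, 6 of 7 deep neocortex and 7 of 10 choroid plexus markers. These counts therefore cannot tell hippocampus from neighbouring tissue. Of the vesicle release genes, 37 of 38 were well above background on all arrays. The exception was Syt2, which was well above background on all 6 CD F1 arrays and on 5 arrays of each other group. All values below are log2 signals after quantile normalization, in which an increase of 1 means a doubled signal, and differences are MD minus CD.

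In F1, the vesicle release genes lay lower on average in offspring of MD fathers, without any of them passing the threshold of the test. Their median log2 difference was -0.08, compared with 0.02 for all 19751 genes, and 30 of 38 had a difference below 0 (78.9%, against 45.3% of all genes and 51.7% of the 4938 genes with the brightest probes). Without MD F1 replicate 5 the median was -0.03 (all genes 0.03), with 26 of 38 below 0. In limma, 0 of 38 genes had an FDR under 0.1, a threshold passed by 0.033% of all probes and 0.0203% of all genes. At an unadjusted p under 0.05 there were 7 of 38 genes (18.4%), compared with 14.4% of all probes, 13.4% of all genes and 10.6% of the 4938 genes with the brightest probes. All 7 were lower in MD F1, where 5.54% of all genes were lower at that p. Without CD F1 replicate 2 there were 4 of 38, while 4420 of the 39429 probes on the array had an unadjusted p under 0.05, compared with 5694 on all F1 arrays. The 7 genes were Syt2, Rph3a, Syt1, Sv2a, Rims1, Syn1 and Synpr. With each array scaled to its 75th percentile in place of quantile normalization, 26 of 38 differences were below 0 and 10 of the 38 changed sign, none of them among these 7 genes. In bulk tissue, fewer nerve terminals or neurons and less RNA per cell cannot be told apart.

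**Figure D1:**
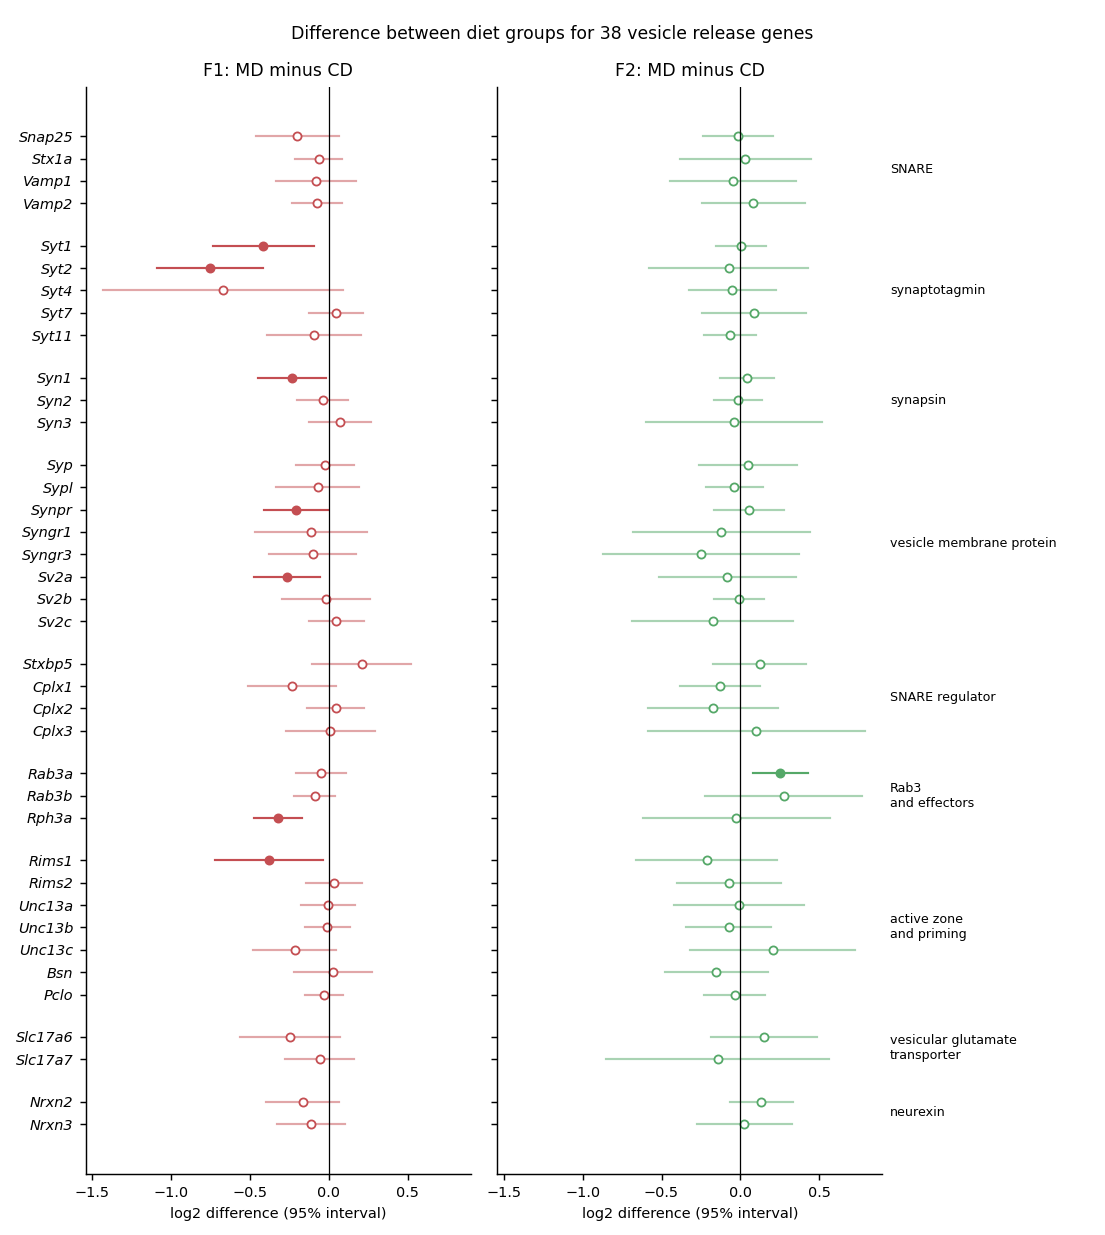
Log2 difference (MD minus CD) of the 38 vesicle release genes in F1 (left) and F2 (right), grouped by role, with 95% intervals from limma (6 arrays per group). Filled points have an unadjusted p under 0.05, which 7 genes reach in F1, all below 0, and Rab3a alone reaches in F2, above 0.

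Among the synaptotagmins, the strongest difference belonged to Syt2, a fast calcium sensor best known from the hindbrain and from parvalbumin interneurons (probe A_55_P2017894). Its log2 signal ran from 4.45 to 5.17 in CD F1 (median 4.75) and from 3.56 to 4.31 in MD F1 (median 4.07). The highest MD F1 array lay under the lowest CD F1 array. Of the 38 vesicle release genes 2 had groups without overlap, both lower in MD F1, against 1.67% of all genes in either direction and 0.765% lower. The log2 difference was -0.75 (standard error 0.154, adjusted p = 0.166 by limma), or -40.7% on the linear scale. This probe is dim, so that the size of the difference depends on the treatment of low signals. With a normexp background correction, which also added an offset of 50 to every signal, the difference was -0.22. An offset makes differences between dim signals smaller, and its part was not separated from that of the background. Without that correction, the difference within the 3 slides was -0.57, -1.04 and -0.65.

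Syt1, the main calcium sensor for synchronous release in forebrain neurons (probe A_55_P2058957), had log2 signals of 16.50 to 17.06 in CD F1 (median 16.74) and of 15.83 to 16.60 in MD F1 (median 16.40). The groups overlapped, with the lowest value on MD F1 replicate 6. MD F1 differed from CD F1 by -0.42 (standard error 0.147, adjusted p = 0.265 by limma), and within slides it was -0.36, -0.55 and -0.34. Without MD F1 replicate 6 it was -0.31 (adjusted p = 0.273). For Syt4, an activity-regulated synaptotagmin with weak calcium binding, the difference of -0.67 (adjusted p = 0.391, limma) included that array, on which the log2 signal was 8.51 against 10.58 to 10.94 on the other MD F1 arrays. Without it the Syt4 difference was smaller, at -0.30, and less variable (adjusted p = 0.17), with an unadjusted p under 0.05 that it did not have on all arrays. Syt11 also reached an unadjusted p under 0.05 without that array, but its difference became larger, at -0.21 (adjusted p = 0.318, limma). For Syt11 that array had the highest signal of MD F1 (15.78). On all arrays, Syt7, a sensor linked to asynchronous release and facilitation, and Syt11, which does not bind calcium, had differences of 0.05 and -0.09.

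Of the genes around Rab3, the small GTPase of synaptic vesicles, Rph3a also had F1 groups without overlap. It encodes rabphilin, which binds Rab3 on the vesicle (probe A_52_P211949). Its log2 signal was 10.87 to 11.17 in CD F1 (median 10.96) and 10.44 to 10.73 in MD F1 (median 10.69). As for Syt2, the groups did not overlap, and all 3 slides showed lower values in MD F1, by -0.18, -0.47 and -0.32. Its log2 difference was -0.32 (standard error 0.0698, adjusted p = 0.177 by limma) and was -0.33 without MD F1 replicate 6. The vesicle GTPases themselves had smaller differences, of -0.05 for Rab3a and -0.09 for Rab3b.

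Among the proteins of the vesicle membrane, Sv2a and Synpr had an unadjusted p under 0.05, out of 8 genes. Sv2a encodes a glycoprotein of synaptic vesicles and the binding site of the antiepileptic drug levetiracetam (probe A_52_P202142). Its log2 signal was 12.62 to 12.83 in CD F1 (median 12.66) and 12.10 to 12.67 in MD F1 (median 12.43), and 2 MD F1 arrays, replicates 1 and 4, lay within the CD F1 range. The Sv2a log2 difference was -0.27 (standard error 0.0958, adjusted p = 0.274 by limma), but by slide it was 0.01, -0.45 and -0.35. Synpr encodes synaptoporin, a relative of synaptophysin that is abundant in the mossy fibre terminals of the dentate gyrus (probe A_55_P2088223). Its log2 signals of 13.32 to 13.74 in CD F1 and 13.11 to 13.56 in MD F1 overlapped, with a log2 difference of -0.21 (adjusted p = 0.338, limma). The other Synpr probe, also well above background, had a difference of 0.04. The remaining vesicle proteins lay between -0.11 (Syngr1) and 0.05 (Sv2c), including -0.02 for Syp, the synaptophysin gene commonly used as a marker of presynaptic terminals.

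The synapsins tether vesicles to each other and to the cytoskeleton and form the reserve pool. Syn1 (probe A_55_P2073338) had log2 signals of 15.81 to 16.06 in CD F1 (median 15.90) and of 15.32 to 15.94 in MD F1 (median 15.71). The groups overlapped, and the lowest value was again that of MD F1 replicate 6. For Syn1 the log2 difference was -0.24 (standard error 0.0988, adjusted p = 0.317 by limma), with 0.01, -0.48 and -0.23 within slides. Without replicate 6 it was -0.16, and the unadjusted p was no longer under 0.05. The paralogs Syn2 and Syn3 had differences of -0.04 and 0.07.

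At the active zone, Rims1 encodes a scaffold that links Rab3, Munc13 and calcium channels (probe A_51_P366770). Its log2 signal was 10.30 to 11.13 in CD F1 (median 10.53) and 9.80 to 10.52 in MD F1 (median 10.29). These ranges overlapped, and the slides gave -0.55, -0.62 and 0.03. This probe had a log2 difference of -0.38 (standard error 0.157, adjusted p = 0.31 by limma) and the second Rims1 probe one of -0.16. Without MD F1 replicate 6 the first came to -0.29, with an unadjusted p no longer under 0.05. The other genes of docking and priming were closer to 0, with 0.03 for Rims2, -0.01 for Unc13a and Unc13b, 0.03 for Bsn and -0.03 for Pclo. The exception was Unc13c (Munc13-3) at -0.22 (adjusted p = 0.422, limma). For Pclo, a large scaffold gene with 4 probes, the 3 dimmer probes had differences of -0.38, -0.13 and -0.17. The first of these had an unadjusted p under 0.05 (adjusted p = 0.295, limma). With all probes of a gene averaged, Pclo was among the 5 of 37 vesicle release genes with an unadjusted p under 0.05, which 2811 of all genes had in that fit.

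**Figure D2:**
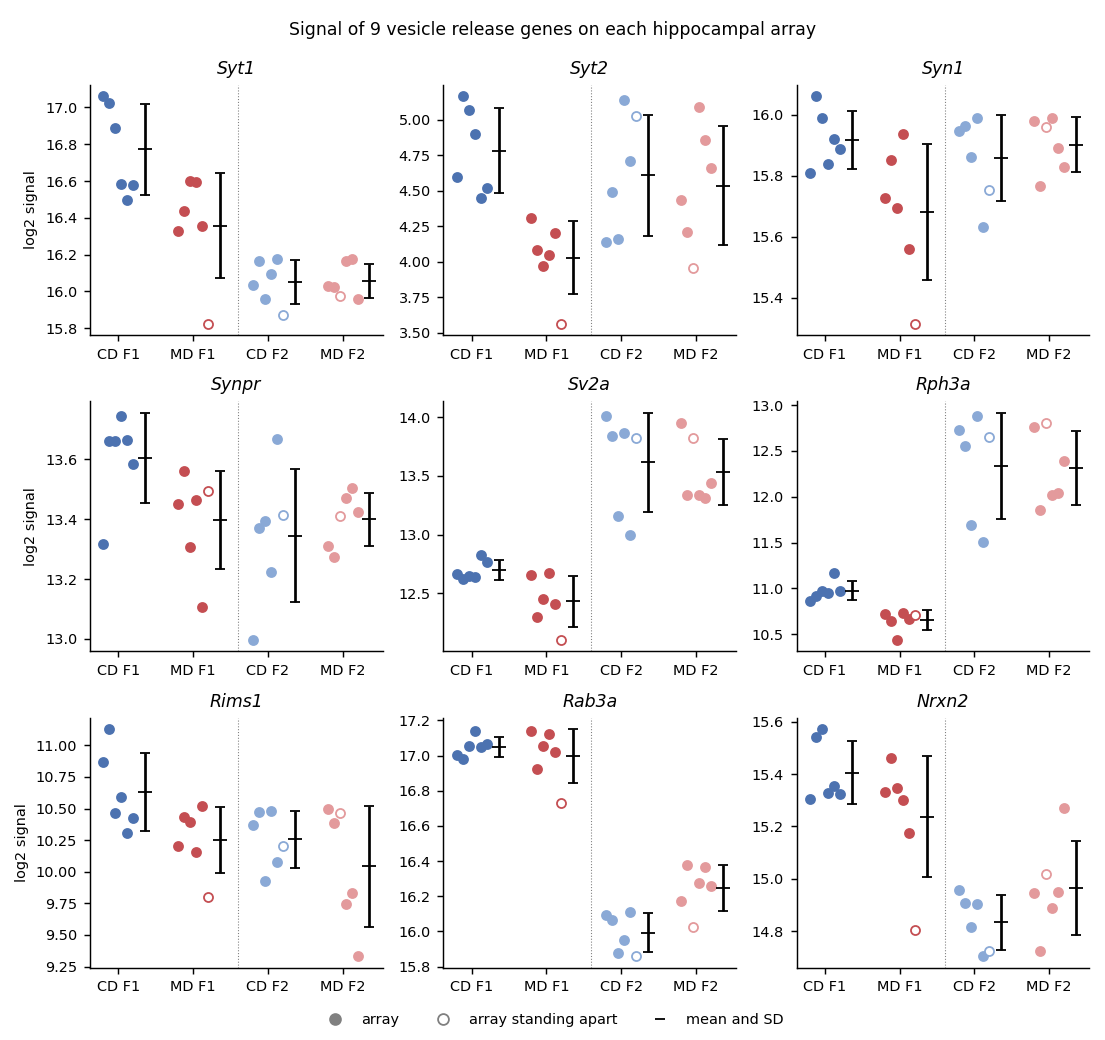
Log2 signal of the 9 vesicle release genes with an unadjusted p under 0.05 in at least 1 comparison, on each array of the 4 groups, with the mean and SD beside the points and open points for the 3 arrays that stood apart. F1 and F2 were scaled separately and are compared only within a generation. Syt2 and Rph3a separate CD F1 from MD F1 completely, and no gene separates CD F2 from MD F2.

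The core fusion machinery showed smaller differences. The SNARE genes Snap25, Stx1a, Vamp1 and Vamp2 had log2 differences of -0.20, -0.07, -0.08 and -0.07, with a smallest adjusted p of 0.456 (limma), and Vamp2 was at 0.02 after scaling to the 75th percentile. Of the SNARE regulators, Cplx1, the main complexin of inhibitory neurons, was at -0.24 (adjusted p = 0.408, limma), Cplx2, the main complexin of excitatory neurons, at 0.04, Cplx3 at 0.01 and Stxbp5, which encodes tomosyn, at 0.21, the highest value of the set. The vesicular glutamate transporters Slc17a7 (VGLUT1), used by most hippocampal excitatory terminals, and Slc17a6 (VGLUT2), used by subcortical inputs, had differences of -0.06 and -0.25. The neurexins, presynaptic adhesion molecules, had -0.17 (Nrxn2) and -0.12 (Nrxn3), and the other Nrxn2 probe, well above background on all arrays, had the opposite sign at 0.18.

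Promoter sequence is shown for Syn1, Sv2a and Rims1, the genes lower in MD F1 at an unadjusted p under 0.05 that have a single start in the reference table, because a methyl donor diet bears on CpG methylation and these stretches differ in CpG content. Each is the 250 bases before the RefSeq start (GRCm38.p6), 5′ to 3′ in the direction of the gene, at chrX:20920919-20921168 (minus strand), chr3:96180977-96181226 (plus strand) and chr1:22806159-22806408 (minus strand). Capitals mark the GC box GGGCGG or its complement CCGCCC, the cAMP response element TGACGTCA and TTCAGCACC, the left part of the element bound by the neuronal silencer REST, searched on both strands.
Syn1: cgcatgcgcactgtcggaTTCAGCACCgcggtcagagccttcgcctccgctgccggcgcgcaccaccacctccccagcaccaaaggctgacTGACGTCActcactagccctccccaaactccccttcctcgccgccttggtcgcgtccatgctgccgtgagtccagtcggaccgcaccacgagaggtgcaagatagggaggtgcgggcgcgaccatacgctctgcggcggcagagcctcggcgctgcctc
Sv2a: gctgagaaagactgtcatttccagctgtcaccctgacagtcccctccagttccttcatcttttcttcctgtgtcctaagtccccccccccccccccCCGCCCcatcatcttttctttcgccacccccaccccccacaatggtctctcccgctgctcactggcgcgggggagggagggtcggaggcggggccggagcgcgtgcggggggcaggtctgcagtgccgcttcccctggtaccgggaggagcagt
Rims1: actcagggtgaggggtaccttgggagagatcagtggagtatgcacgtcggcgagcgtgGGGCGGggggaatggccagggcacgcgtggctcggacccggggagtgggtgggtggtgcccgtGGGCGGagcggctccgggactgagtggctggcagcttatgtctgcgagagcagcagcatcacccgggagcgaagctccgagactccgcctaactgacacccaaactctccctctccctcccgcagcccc

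These windows hold 27 CpG dinucleotides for Syn1, 13 for Sv2a and 19 for Rims1, compared with a median of 6 over all 32851 windows of the table. The other genes lower in MD F1 at that p have several windows each, some of them under this median. They hold 30 and 22 for Syt2, 4, 12 and 5 for Rph3a, 5 and 8 for Syt1, and 13 and 1 for Synpr. Reference windows were found for 30 of the 38 genes, 44 windows in all, with a median of 10 CpG dinucleotides. The GC box was present in 59.1% of the 44 windows and in 32.7% of all windows. The Syn1 window alone among the 44 held the cAMP response element (1.55% of all windows) and alone held the left part of the REST element (0.301% of all windows). DNA methylation was not measured on these arrays, and a match of letters is not a binding site.

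To place the set among its neighbours, 60 further genes of release, recycling and presynaptic adhesion were listed, of which 59 were on the array. In F1, 46 of the 59 had a difference below 0 (78%, against 45.3% of all genes, median -0.07). An FDR under 0.1 in limma was passed by 0 of them (0.0203% of all genes). At an unadjusted p under 0.05 there were 11 (18.6%, against 13.4% of all genes), with 10 lower and 1 higher in MD F1. Of all genes, 5.54% were lower at that p. The lowest p belonged to Nsf, the ATPase that takes SNARE complexes apart after fusion, with log2 signals of 16.10 to 16.42 in CD F1 and 15.57 to 16.04 in MD F1 and a difference of -0.36 (adjusted p = 0.196, limma). It was followed by Synj1 (-0.31), a phosphatase of vesicle uncoating, Slc17a8 (-0.31), the third vesicular glutamate transporter, and Rims4 (-0.27). Nsf and Synj1 were without overlap between the groups, as were 1.67% of all genes. The only gene of the 11 that was higher was Rab3d (0.16).

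**Figure D3:**
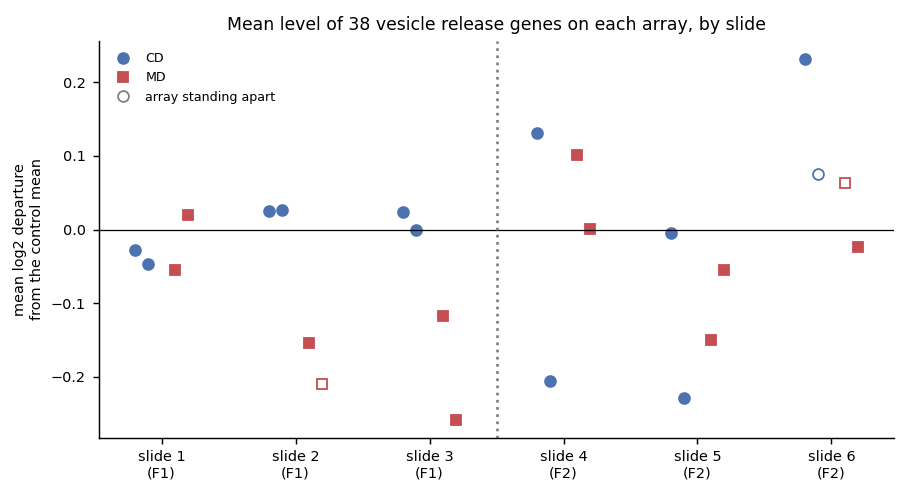
Mean over the 38 vesicle release genes of the log2 departure from the control mean of the generation, for each array, by slide. Circles are CD arrays, squares are MD arrays and open symbols are the 3 arrays that stood apart. In F1 the MD arrays lie below both CD arrays of their slide on slides 2 and 3. On slide 1, MD F1 replicate 1 lies below both CD arrays and MD F1 replicate 4 above both. In F2 the diets are mixed.

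The lower level in F1 was not equal on all arrays. Averaged over the 38 genes, the departure from the control mean had an SD of 0.0314 over the 6 CD F1 arrays, around 0 by definition, and averaged -0.13 ± 0.101 (SD, n = 6) for MD F1, whose arrays ran from -0.26 on replicate 5 to 0.02 on replicate 4. On slide 1 the median difference over the genes was 0.06, with 12 of 38 genes lower in MD F1. On slides 2 and 3 it was -0.12 and -0.17, with 27 and 34 genes lower. Other measures moved along with the diet in F1. All 7 astrocyte markers had a difference below 0 (median -0.11), with a mean level of 13.43 to 13.59 in CD F1 and 13.08 to 13.43 in MD F1. So had 12 of 15 principal neuron markers (median -0.11, mean level 11.79 to 11.96 and 11.62 to 11.85), 7 of 8 interneuron markers (median -0.12, 11.95 to 12.20 and 11.48 to 11.96) and 6 of 7 oligodendrocyte markers (median -0.19, 14.58 to 14.95 and 14.13 to 14.76), none of them with an FDR under 0.1 in limma. The mean level of the interneuron markers rests in part on Erbb4 (-1.18), a dim probe well above background on 3 CD F1 arrays and 0 MD F1 arrays. The other interneuron markers had differences between -0.21 (Gad2) and 0.04 (Npy). All 10 choroid plexus markers had a difference above 0 (median 0.51), with a wide mean level of 7.31 to 10.50 in CD F1 and 7.45 to 11.63 in MD F1. Of the other lists, 3 of 10 thalamus, 4 of 10 striatum, 3 of 7 deep neocortex, 3 of 6 microglia and 3 of 5 endothelium markers had a difference above 0. The sex measure, the mean log2 signal of 4 Y-linked genes minus that of Xist, was -2.30 to -1.90 in CD F1 and -2.15 to 0.16 in MD F1. The part of these measures in the F1 differences was not tested, apart from a limma fit with the sex measure as a covariate. There the differences were -0.57 for Syt2, -0.36 for Rph3a and -0.29 for Synpr, each with an unadjusted p under 0.05. For Syt1 (-0.26), Sv2a (-0.17), Syn1 (-0.17) and Rims1 (-0.18) the unadjusted p was above 0.05. Syngr1, Syngr3 and Syt11 had an unadjusted p under 0.05 in that fit, which gave 6 of 38 genes, while 3921 of the 39429 probes on the array had that p. The smallest FDR among the 38 genes was 0.327 there. In the same fit 35 of 38 differences were below 0, as were 50.4% of all genes.

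In F2, the differences between offspring of MD and CD grandfathers centred on 0. The median log2 difference of the 38 genes was -0.02, and 23 were below 0 (60.5%, against 48.3% of all genes). In limma, 0 of 38 genes had an FDR under 0.1, as had 0 of all 39423 probes tested, where 5.6% of all probes had an unadjusted p under 0.05. Of the vesicle release genes, 1 of 38 did (2.63%, against 5.65% of all genes). None of the 38 separated the groups, a property of 0.38% of all genes. Scaling to the 75th percentile left 17 of 38 differences below 0. The choroid plexus markers differed most among the marker lists in F2, with 0 of 10 above 0, a median of -2.29 and a mean level of 6.96 to 12.46 in CD F2 and 6.89 to 11.66 in MD F2, none with an unadjusted p under 0.05. Principal neuron markers had a median of 0.00 (8 of 15 above 0), interneuron markers 0.09 (7 of 8), astrocyte markers 0.00 (4 of 7) and oligodendrocyte markers -0.07 (1 of 7). The part of these markers in the F2 and diet by generation values was not tested.

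The gene in question was Rab3a (probe A_55_P1956557), the most abundant vesicle Rab of the brain in textbook accounts. Its log2 signal was 15.86 to 16.11 in CD F2 (median 16.01) and 16.03 to 16.38 in MD F2 (median 16.27). Only 1 MD F2 array, replicate 3, lay within the CD F2 range. The F2 difference was 0.25 (standard error 0.0799, adjusted p = 0.89 by limma), and within slides it was 0.12, 0.40 and 0.25. In F1, Rab3a ran from 16.98 to 17.14 in CD F1 and from 16.73 to 17.14 in MD F1.

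The other members had F2 differences between -0.25 (Syngr3, a synaptogyrin of the vesicle membrane) and 0.27 (Rab3b). Of the 59 further release genes, 25 were lower (42.4%, against 48.3% of all genes). An unadjusted p under 0.05 was reached by 3 (5.08%, against 5.65% of all genes). These were Snap29 (-0.35), a SNARE of intracellular membranes, Cplx4 (0.32), a complexin best known from the retina, and Erc1 (0.18), an active zone protein, with an FDR of 0.89 or more in limma.

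The 7 genes that were lower in F1 had F2 differences of -0.07 (95% interval -0.58 to 0.43) for Syt2, -0.03 (-0.62 to 0.57) for Rph3a, 0.00 (-0.16 to 0.17) for Syt1, -0.08 (-0.51 to 0.35) for Sv2a, -0.21 (-0.66 to 0.23) for Rims1, 0.04 (-0.13 to 0.21) for Syn1 and 0.05 (-0.17 to 0.28) for Synpr. For Syt2, Syt1, Syn1 and Synpr the interval leaves out a difference as large as the F1 estimate. For Rph3a, Sv2a and Rims1 it does not, so a difference of that size lies within what the F2 arrays allow. The F1 estimates have wide intervals of their own (-0.41 to -0.01 for Synpr), and the 7 genes were picked by their F1 p. This comparison therefore cannot show that an F1 difference was absent in F2.

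Whether diet acted differently in the 2 generations was tested directly, as the F1 difference minus the F2 difference over all 24 arrays. No vesicle release gene had an FDR under 0.1 (0 of 38, against 0.0127% of all probes and 0.0253% of all genes, limma), and the smallest FDR was 0.459. An unadjusted p under 0.05 was reached by 5 of 38 genes (13.2%, against 7.99% of all genes and 8.29% of all probes), with the F1 difference below the F2 difference for each, a direction in which 3.45% of all genes reached that p. These were Rab3a at -0.30 (adjusted p = 0.459), Syt2 at -0.70 (adjusted p = 0.5), Syt1 at -0.41 (adjusted p = 0.509), Syn1 at -0.27 (adjusted p = 0.577) and Nrxn2 at -0.30 (adjusted p = 0.595), all from limma. For Nrxn2 (probe A_55_P1954061), the log2 signals were 15.30 to 15.57 in CD F1 and 14.80 to 15.46 in MD F1, while the F2 arrays ran from 14.70 to 14.96 under CD and from 14.72 to 15.27 under MD, and the other Nrxn2 probe had a value of 0.10. Without the 3 arrays that stood apart, Syt2 (-0.81) and Rab3a (-0.26) kept an unadjusted p under 0.05, and Syt1 (-0.28), Syn1 (-0.17) and Nrxn2 (-0.18) did not. With the normexp correction and its offset of 50, however, Syt2 did not have an unadjusted p under 0.05. Its value ranged from -0.94 to -0.15 over the alternatives run.

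The arrays of F2 differed from each other more than the diets did. The median over the 38 genes of the SD within a group was 0.268 in F2 and 0.172 in F1, and a 95% interval typically extended 0.329 to each side of the estimate in F2 and 0.217 in F1. The widest spread was that of Slc17a7, the vesicular glutamate transporter VGLUT1, with log2 signals of 14.63, 14.04, 13.29, 14.23, 12.76 and 14.30 on CD F2 replicates 1 to 6 and of 14.30, 13.39, 14.22, 13.35, 13.24 and 13.86 on MD F2 replicates 1 to 6. The low arrays, CD F2 replicates 3 and 5 and MD F2 replicates 2, 4 and 5, belong to both diets and to all 3 slides. The sex measure differed widely between F2 arrays. It was -7.57 and -7.66 on CD F2 replicates 3 and 5 and 5.37 to 7.02 on the other CD F2 arrays, so that within CD F2 the arrays low in Slc17a7 were those with a negative sex measure. In MD F2 it was positive, up to 7.26, on the low replicates 2, 4 and 5, and the negative value, -7.43, was that of replicate 6, with a Slc17a7 signal of 13.86. The part of the sex measure in this spread was not tested. Rph3a was low on the same arrays, with 11.70 and 11.51 on the low CD F2 arrays and 12.56 to 12.88 on the others.

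A block of vesicle genes shared this pattern. Over the 12 F2 arrays, after subtraction of the group means, 11 of the 37 other vesicle release genes correlated with Slc17a7 above 0.8. These were Sv2a (0.97), Rph3a (0.96), Syngr1 (0.95), Unc13a (0.94), Stx1a (0.93), Syp (0.93), Syn3 (0.91), Vamp1 (0.89), Vamp2 (0.89), Syt7 (0.89) and Syngr3 (0.87). Sypl, a synaptophysin relative found outside synapses as well, ran opposite at -0.81, and Syt1, Syn2 and Rab3a did not follow (-0.46, 0.05 and -0.43). The same arrays ordered much of the transcriptome: 1486 of 13852 genes well above background on all F2 arrays also correlated with Slc17a7 above 0.8 and 7.1% of them below -0.8. The leading component of those genes held 37% of the variance within groups and correlated with Slc17a7 at 0.901, leaving the sign aside. In F1 the leading component held a similar share, 40.1%, but its correlation with Slc17a7 was 0.365. There, 0 of 37 vesicle release genes and 1.1% of genes passed 0.8. These correlations describe the arrays, whose values share labelling, hybridization and scaling.

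**Figure D4:**
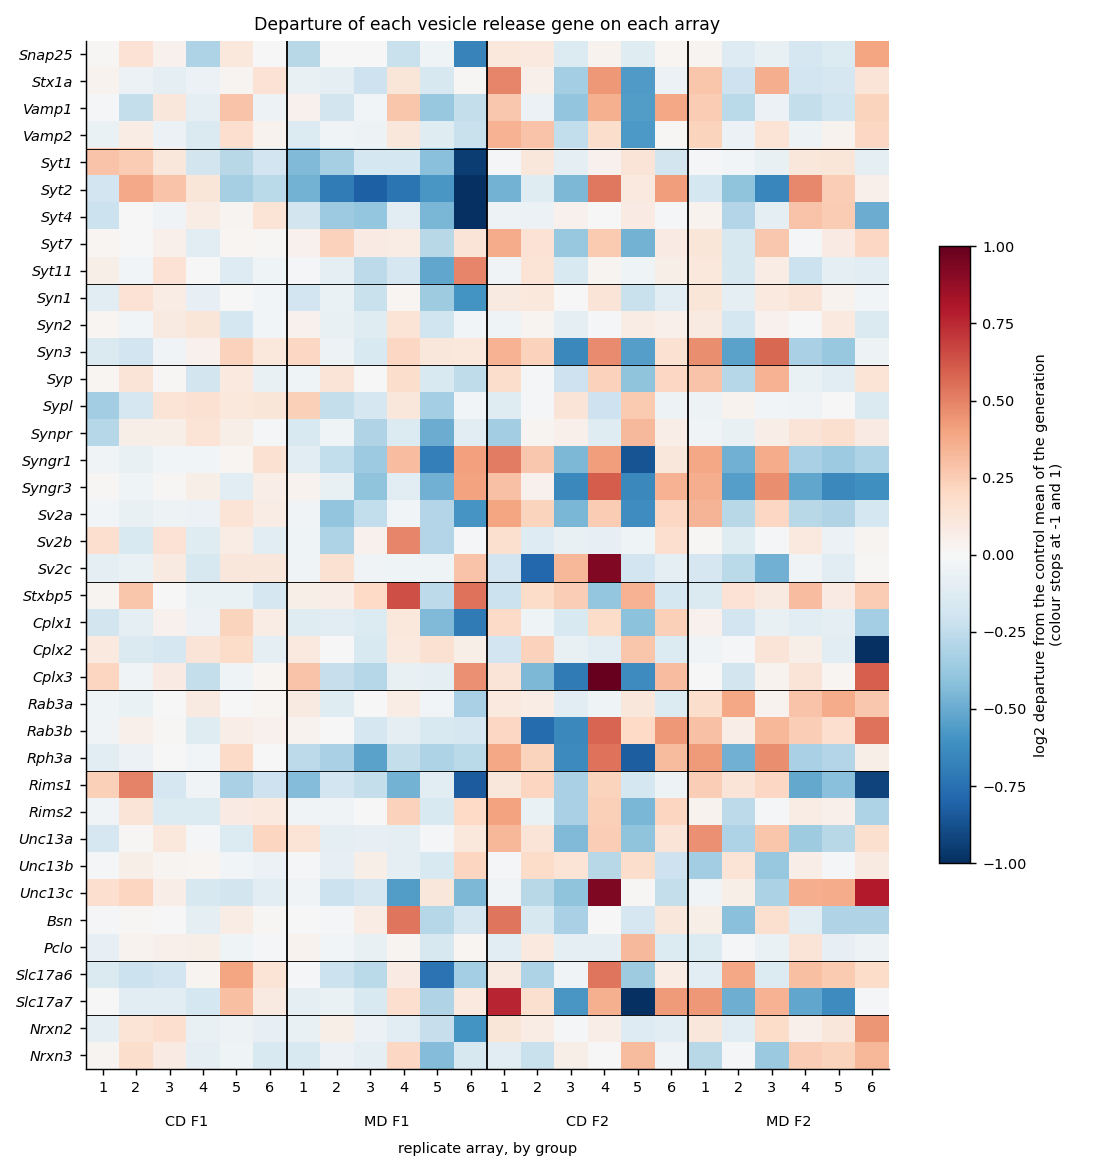
Log2 departure of each of the 38 vesicle release genes (rows, grouped by role) from the control mean of its generation on each of the 24 arrays (columns, by group and replicate), with colours from -1 (blue) to 1 (red). In F1 the blue cells of Syt1, Syt2 and Rph3a run across all 6 MD arrays, and in F2 a block of genes that includes Slc17a7, Rph3a, Sv2a and Syngr1 is low together on CD replicates 3 and 5 and MD replicates 2, 4 and 5.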

How the data were processed

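RNA pools were hybridized to Agilent single-color 4x44K v2 mouse arrays. The deposited scanner files hold, per spot, the linear processed signal intensity of Agilent Feature Extraction (version 10.7.3.1 per the file headers, while the methods name another version), background-subtracted by the software and not scaled between arrays. The authors also deposited an intensity table that is quantile-normalized within each generation (sorted values differ by at most 0.037 on the log2 scale), used as an alternative. Here, intensities of 43020 non-control spots were log2-transformed, irregular spots (1939 in F1, 2097 in F2) were left out, spots were quantile-normalized within a generation (all 24 arrays for the diet by generation comparison) and repeated spots of the 39429 probes were averaged. A probe entered the fit only with values on 2 or more arrays in each group. limma 3.58.1 (R 4.3.3) was fitted over all probes with group means, and p-values were adjusted by Benjamini-Hochberg, with an FDR threshold of 0.1. The fit was tested on simulated data. Arrays were averaged over 6 per group, and the number of arrays limits the precision. Probes were named through RefSeq identifiers (26055 probes, 19751 symbols). Nothing says whether the pools of a group shared litters.

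Genes received full statistics if they had an FDR under 0.1, an unadjusted p under 0.05 or groups without overlap in any comparison. Syt4 and Slc17a7 are described beyond that rule, after their values were seen. Of the further release genes, up to 5 with the smallest p are named per generation, of which 1 is not reported here. The members and gene lists were chosen with earlier results of these data known. The normexp alternative used an offset of 50 and the median spot signal, since the files hold no mean signal. Sequences come from RefSeq (GRCm38.p6). Replicate numbers did not pair arrays.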

Additional observations from a re-analysis of the deposited data

Results flagged for a closer look

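In each group of 6 arrays, the highest or lowest array was checked for its distance from the nearest other array relative to the whole range of the group (Dixon's test at 95%). Of 156 sets, the 38 genes and their mean departure in 4 groups, 10 stood out (6.41%), where chance gives about 1 in 20. MD F1 replicate 6 was low for Syt4 (8.51, nearest other array 10.58) and for Syt1 (15.83, nearest 16.33). MD F2 replicate 6 was low for Cplx2 (15.99, nearest 16.93) and high for Snap25 (16.53, nearest 16.17). For Unc13c, CD F2 replicate 4 was high at 8.84 (nearest 7.92). For Rph3a, CD F1 replicate 5 was high at 11.17 and MD F1 replicate 3 low at 10.44, both on the side away from the other diet. The remaining sets were Syt7 in CD F1 (replicate 4 at 9.61) and MD F1 (replicate 5 at 9.44), and Snap25 in CD F1 (replicate 4 at 16.80). No cause of these values was tested, and for none of the 38 genes did the diet by generation test in limma reach an FDR under 0.1 (5 of 38 had an unadjusted p under 0.05).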

How the results depend on the processing

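The number of vesicle release genes with an FDR under 0.1 by limma was 0 in F1, F2 and diet by generation under every alternative run except 1. Without normalization between arrays, 9 of 38 were called in F1 and 19 had an unadjusted p under 0.05 (0 in F2). In that F1 fit 7952 of the 39429 probes on the array were called and 13919 had an unadjusted p under 0.05. The median difference of all genes moved to -0.25 with 92.7% of them below 0. At an unadjusted p under 0.05, the F1 count was 4 of 38 with all 24 arrays fitted together, where 4226 of the 39429 probes on the array had that p. It was 4 to 7 with each array left out in turn (calls 0 in each), with 4375 to 6288 probes at that p. The F2 count was 2 with the sex measure as a covariate (2833 probes) and 1 with each array left out (1612 to 2678 probes). The diet by generation count was 3 of 38 with scaling to the 75th percentile (3011 probes), 3 of 37 with all probes of a gene averaged (1412 genes) and 2 of 38 without the 3 arrays that stood apart (3677 probes). It was 3 to 8 with each array left out (2743 to 3740 probes). In the main fit it was 5 of 38, with 3268 probes at that p, so the larger share among the vesicle release genes depended on the setting. The F1 count of 4 came without CD F1 replicate 2. The diet by generation count was 3 without CD F1 replicate 2 or 3, MD F1 replicate 5 or 6, CD F2 replicate 6, or MD F2 replicate 1 or 3, and 8 without CD F2 replicate 4. The cause was not tested. With the replicate block the counts were 6 in F1 (5279 probes), 1 in F2 (1997 probes) and 4 for diet by generation (3342 probes), with 0 vesicle release genes called. Same-numbered arrays correlated between -0.041 and 0.255 in F1 and -0.186 and 0.233 in F2, so the numbers were not taken as pairs. No difference of a named gene in the comparison that named it changed sign under the alternatives run. Genes with a dim probe, such as Syt2, are least precisely measured.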
